A study of Mus musculus with 2 samples.

Results

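The 10 genes described here carry heme breakdown and iron handling. They are the heme oxygenases Hmox1 and Hmox2, the biliverdin reductases Blvra and Blvrb, the ferritin chains Fth1 and Ftl1, the iron exporter Slc40a1, the iron importers Tfrc and Slc11a2, and the iron sensor Ireb2. They were chosen by gene symbol, with 1 probe set per gene, out of 19505 named genes. RNA came from B16F10, a mouse melanoma line, measured on 2 Affymetrix arrays with 1 array per group. Both groups received a puromycin resistance vector, puromycin selection and forskolin for 5 days. Forskolin activates adenylate cyclase and raises cAMP. The control group stably expressed GFP and the other stably expressed Nrf3. Nfe2l3 encodes NRF3, one of the cap'n'collar (CNC) basic leucine zipper factors. The labels give neither the forskolin dose nor the species of the plasmid's coding sequence, and do not say whether a stable population was clonal or pooled.

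Heme oxygenase opens the heme ring and releases biliverdin, carbon monoxide and ferrous iron. Biliverdin reductase turns biliverdin into bilirubin, and the iron is stored in ferritin or exported through ferroportin, the Slc40a1 product. Transcription of Hmox1 is a textbook target of CNC factors paired with small MAF proteins, which BACH1 opposes when heme is scarce. Iron regulatory proteins add a second layer of control. They bind stem-loops in the mRNAs of ferritin, ferroportin, the transferrin receptor and Slc11a2, and so set translation or mRNA stability. The arrays measured RNA only, so translation was not seen.

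Values are log2 expression values as deposited, and each difference is NRF3 minus GFP on that scale. With no replicates there is no error, interval or p-value for any difference, and each compares 2 RNA samples only. A gene was called detected when its brighter value reached 5.89, the median over named probe sets, which 10162 genes did. Control rows named neg, which carry some strong signal, had upper quartiles of 7.52 (GFP array) and 7.85 (NRF3 array). They serve below as a mark for dim values. The medians of the neg rows, 6.12 (GFP array) and 6.37 (NRF3 array), lay above the floor of 5.89. Genes called detected can therefore be dimmer than a typical neg row. Nfe2l3 had a log2 value of 6.04 in the control and 10.15 in the NRF3 cells, in the direction of the labels. The control value lay under the neg median of 6.12, so no fold is given. The labelled cell type was checked with markers: 7 of 7 melanocyte lineage genes were detected, and 0 of 8 named macrophage genes. The highest macrophage value was 5.14 on the GFP array and, for a different gene, 5.43 on the NRF3 array. Of 6 named erythroid genes, Slc4a1 and Tal1 passed the floor, and neither exceeded the upper quartiles of the neg rows.

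Heme breakdown genes split within each enzyme pair. Hmox1 and Blvrb were far higher in the NRF3 cells, while Hmox2 and Blvra differed by less than 1.5-fold. Slc40a1 was lower, Slc11a2 was slightly higher, and the ferritin chains, Tfrc and Ireb2 lay within 1.5-fold. All 10 genes were detected, and 9 of them lay above the neg upper quartile on both arrays. The exception was Slc40a1 on the NRF3 array. By the rule of at least 1.5-fold, 3 members were higher, where 17.0% of all detected genes were. By the same rule 1 member was lower, where 23.6% of all detected genes were. At 2-fold or more 2 members were higher, Hmox1 and Blvrb, and 1 was lower, Slc40a1, where 6.75% and 11.0% of detected genes were. The median difference of the members was 0.20, and that of all detected genes was -0.07. These shares over 10 genes are a description and set nothing apart.

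**Figure D1:**
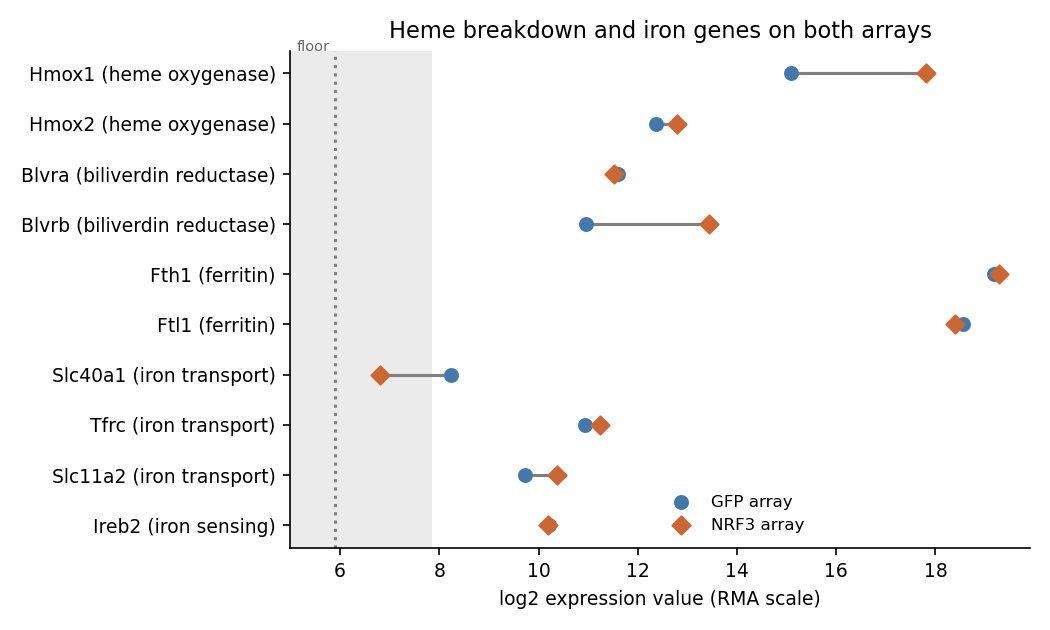
Log2 expression value (RMA scale) of each of the 10 genes on the GFP array (circles) and the NRF3 array (diamonds). The dotted line is the detection floor of 5.89 and the grey area ends at 7.85, the upper quartile of neg control rows on the NRF3 array. Hmox1 and Blvrb have the long rightward gaps, and Slc40a1 has the leftward one. Levels of different probe sets are not comparable with each other.

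Hmox1 (NCBI gene 15368, chromosome 8), the inducible heme oxygenase, had a log2 value of 15.08 in the control and 17.80 with NRF3. It was 6.61-fold higher in the NRF3 cells, a difference of 2.72 that held rank 20 from the top among 10162 detected genes. Both values lay far above the neg upper quartiles, so the gene was already bright in the control cells. There were 140 detected genes whose mean level lay above 16 and up to 18. The quartiles of their differences were -0.49 and 0.31, and Hmox1 had the highest difference of them. Its control value of 15.08 lay below 16, so the high NRF3 value itself placed Hmox1 in this range. In the range from 8 to 16, which held 6810 genes, the highest difference was 6.54. The ranges therefore cannot show how uncommon such a gap is at the control level of Hmox1.

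Hmox2 (NCBI gene 15369, chromosome 16), the constitutive heme oxygenase, had values of 12.36 and 12.79. Its difference of 0.43, or 1.35-fold, lay below the size rule. Hmox1 exceeded Hmox2 by 2.29 in this difference, a ratio of folds of 4.89. The same direction in both genes therefore hides a large gap in size.

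The reductases showed a similar split. Blvrb (NCBI gene 233016, chromosome 7), which also reduces flavins, had values of 10.96 in control and 13.44 in NRF3 cells. It was 5.59-fold higher, a difference of 2.48 at rank 29 of 10162. Both values lay above the neg upper quartiles. Blvra (NCBI gene 109778, chromosome 2), the reductase that makes bilirubin from the main product of heme oxygenase, had values of 11.60 and 11.52. Its difference of -0.08 was close to the -0.07 of all detected genes. The ratio of folds between Blvrb and Blvra was 5.90.

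Promoter sequence of Blvra and Blvrb is shown because the RNA of these reductase genes differed so unequally. RefSeq windows (GRCm38.p6) of 300 bases, 250 before and 50 after an annotated start, were found for 7 of the 10 genes, 12 windows in all. Those 7 are Hmox2, Blvra, Blvrb, Fth1, Ftl1, Tfrc and Ireb2. The stretches below run from 130 to 31 bases before the start on the plus strand, at chr2:127070527-127070626 for Blvra and chr7:27447848-27447947 for Blvrb. Capitals mark a match to the core of sites bound by CNC or BACH factors with small MAF proteins, TGACNNNGC, searched on both strands.
Blvra: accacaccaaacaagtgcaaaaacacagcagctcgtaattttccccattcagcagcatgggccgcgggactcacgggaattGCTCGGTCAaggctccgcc
Blvrb: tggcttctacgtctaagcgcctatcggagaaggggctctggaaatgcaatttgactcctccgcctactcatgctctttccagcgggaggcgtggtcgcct

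The Blvra match reads TGACCGAGC on the minus strand and lies 49 to 41 bases before the start. It was the only match to this core in the 12 windows, and neither of the 2 Blvrb windows held one. The core was in 12.4% of all 32851 windows that RefSeq gave, and in 13.9% of the 10716 windows of detected genes. The core shares its TGAC with AP-1 sites. The E-box CACGTG, the same on both strands, was in 0 of the 12 windows and in 7.15% of all windows. The loop pattern of iron-responsive elements, CNNNNNCAGTGN, was searched on the gene strand only. It was in 0 of the 12 and in 10.4% of all windows. These elements act in mRNA, and only 50 bases of each window follow the start. The search therefore could not show whether the mRNAs of these genes carry one. The 3 patterns can overlap where one's last bases are another's first. These are letters in short windows, and nothing about binding follows from a match or its lack.

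The ferritin chains differed little. Fth1 (NCBI gene 14319, chromosome 19), the heavy chain with the ferroxidase site, had log2 values of 19.17 in the control and 19.28 with NRF3. Ftl1 (NCBI gene 14325, chromosome 7), the light chain that helps iron mineralize, had values of 18.56 and 18.40. The differences of 0.11 and -0.16 point opposite ways and both are small.

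Their levels limit what can be read from this. For the 25 detected genes whose mean level exceeded 18, differences had quartiles of -0.16 and 0.12, the narrowest spread of the level ranges compared. Fth1 and Ftl1 are among the 25, and the lower quartile is the Ftl1 difference itself. Of these 25 genes, 1 was higher by the 1.5-fold rule and 1 was lower. A small difference for a ferritin chain therefore does not show equal RNA. Mouse ferritin genes also have near-identical processed copies, and the probe sets were not checked for reading them.

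Slc40a1 (NCBI gene 53945, chromosome 1), ferroportin, the iron exporter of the cell surface, had a value of 8.24 in the control and 6.81 with NRF3. It was 2.69-fold lower in the NRF3 cells, a difference of -1.43, with 4.60% of detected genes lower still. The NRF3 value lay under the neg upper quartile of 7.85 and above the neg median of 6.37. The size of this difference may therefore depend on background.

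Both importers among the members had differences above 0, while the importer Slc39a14, described below, differed by -2.11. Slc11a2 (NCBI gene 18174, chromosome 15), the divalent metal transporter that moves iron out of endosomes, had values of 9.72 and 10.37. Its 1.57-fold difference only just passed the rule of size. Tfrc (NCBI gene 22042, chromosome 16), the transferrin receptor, had values of 10.93 and 11.23 and a difference of 0.30. That is below 0.39, the upper quartile of all detected genes. Ireb2 (NCBI gene 64602, chromosome 9), the RNA-binding sensor IRP2, had values of 10.21 and 10.19. Its difference of -0.02 became positive, at 0.05, after median centring, so it has no settled direction. The rule of size corresponds to a difference of 0.58, with Slc11a2 just inside it at 0.65 and Hmox2 the nearest outside it at 0.43.

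Genes of chromosome 8 were higher as a whole, so Hmox1 was set against its surroundings. Over 549 detected genes of that chromosome the median difference was 0.56, and 47.5% were at least 1.5-fold higher. The shift was present on both sides of Hmox1, with medians of 0.47 over the 259 detected genes before it and 0.67 over the 289 after it. Close to Hmox1 it was not. The 10 nearest detected genes on each side had a median of -0.11, with 1 of these 20 at least 1.5-fold higher, Sin3b, and 4 as much lower. The nearest genes before Hmox1 were Sin3b at 0.84, Hmgxb4 at -0.40 and Tom1 at 0.43. Those after it were Mcm5 at -1.01, Arhgap10 at -0.67 and Prmt9 at -0.0004.

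Subtracting the neighbours' median left Hmox1 at 2.83, rank 12 of 10159 genes with neighbours. With 25 genes on each side, a width chosen after the data were seen, the neighbours' median was 0.07 and Hmox1 stood at 2.65. On chromosome 8 only 4 detected genes had a larger difference. Beside its own neighbours the difference of Hmox1 was thus similar in size to the 2.72 of the plain comparison. The chromosome's median of 0.56 was not subtracted, and whether Hmox1 shares any part of that shift was not tested.

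**Figure D2:**
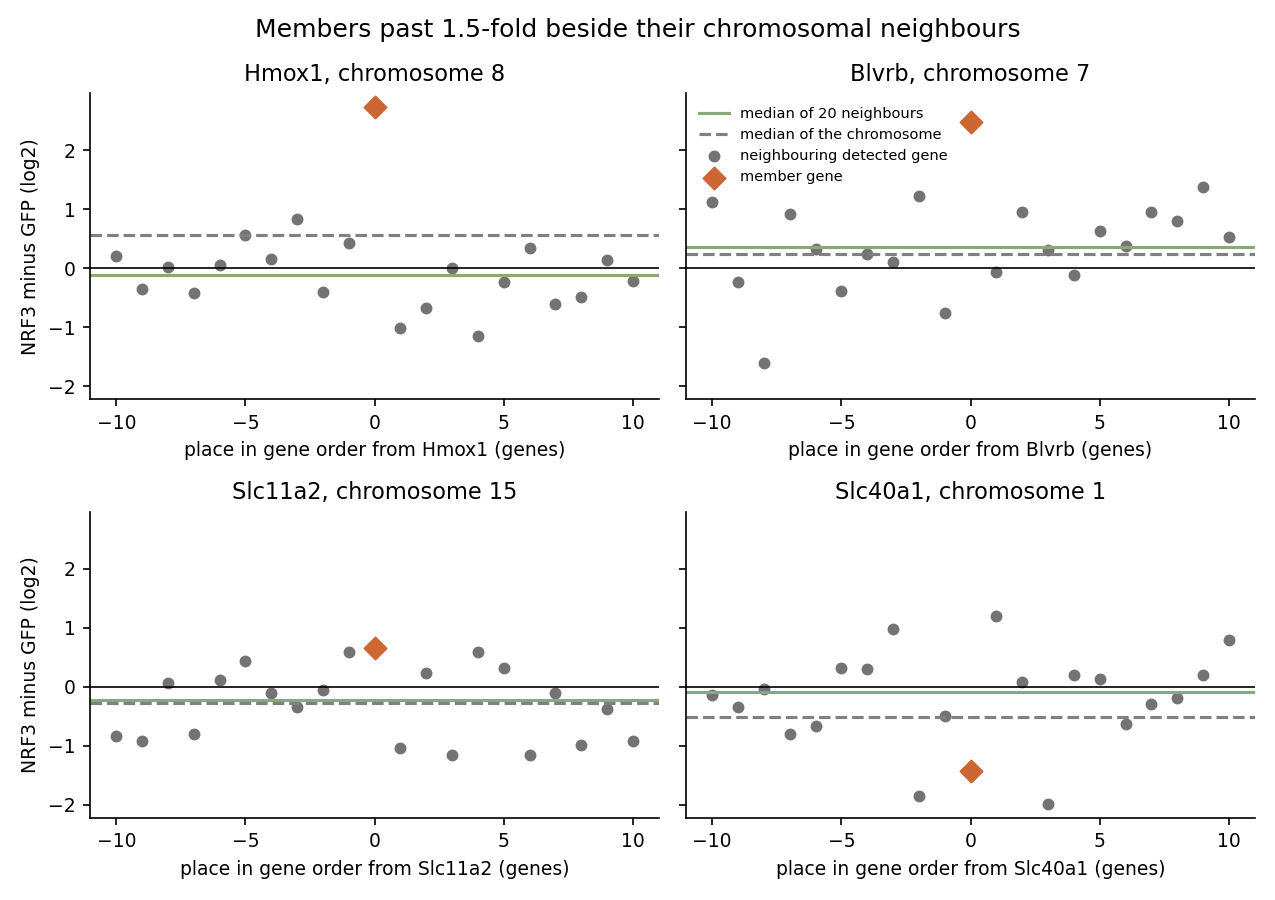
NRF3 minus GFP (log2) of the 4 genes past 1.5-fold (diamonds) and of the 10 nearest detected genes on each side in RefSeq gene order (points). The solid green line is the median of those 20 neighbours and the dashed line that of all detected genes on the chromosome. For Hmox1 the neighbours' median is -0.11 and the chromosome's 0.56, and no neighbour of Hmox1, Blvrb or Slc11a2 exceeds the gene itself.

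Blvrb also stood above all 20 of its neighbours. Their median was 0.35, with 8 at least 1.5-fold higher, and the highest was Zfp974 at 1.37. The nearest were Coq8b at 0.11, Numbl at 1.22 and Shkbp1 at -0.76 before it, and Sertad3 at -0.06, Pld3 at 0.96 and 2310022A10Rik at 0.31 after it. Subtracting the median left Blvrb at 2.13, or 4.37-fold, at rank 45 of 10159. Of the 20 neighbours 14 lay above 0 and 6 below, and the median of the 723 detected genes of chromosome 7 was 0.23. Whether any part of the Blvrb difference is shared with the genes around it was not tested.

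Slc40a1 lies on chromosome 1, whose 552 detected genes had a median of -0.51. Its own neighbours had a median of -0.09. The nearest went both ways, with Mettl21e at 0.97, Gulp1 at -1.85 and Wdr75 at -0.50 before it, and the zinc transporter gene Slc39a10 at 1.19, Tmeff2 at 0.08 and Cavin2 at -1.99 after it. Gulp1 and Cavin2 were lower than Slc40a1 itself, which stood at -1.34 after subtraction. Slc11a2 exceeded all 20 of its neighbours, among them Dip2b at -0.35, Atf1 at -0.05, Mettl7a1 at 0.60, Letmd1 at -1.04, Csrnp2 at 0.23 and Tfcp2 at -1.15. Their median was -0.23, and Slc11a2 stood at 0.88 after subtraction.

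Neighbours moved some of the other genes past the rule of size. Fth1 moved from 0.11 to 0.72, since its 20 neighbours had a median of -0.61, and Hmox2 moved from 0.43 to 0.66. Both then passed 1.5-fold, which made 5 members higher, where 18.4% of detected genes were higher after the same subtraction. Slc40a1 was still the 1 lower member, where 20.0% of detected genes were lower. With 25 genes on each side Fth1 stood at 0.41 and Hmox2 at 0.51, and 3 members were higher again. Blvra stood at 0.43 after subtraction, Tfrc at 0.02, Ireb2 at 0.01 and Ftl1 at -0.19.

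**Figure D3:**
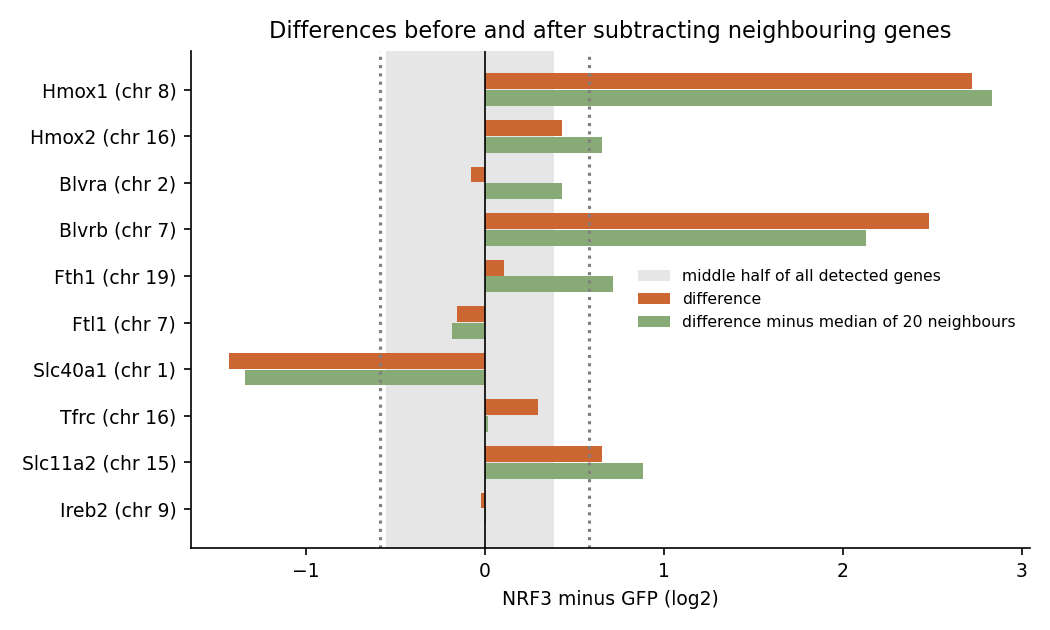
NRF3 minus GFP (log2) of the 10 genes as deposited (orange bars) and after subtraction of the median of 20 neighbouring detected genes (green bars). Dotted lines mark 1.5-fold and the grey band the quartiles of all detected genes, -0.55 and 0.39. Hmox1, Blvrb and Slc40a1 keep large differences either way, while Fth1 and Hmox2 pass the dotted line only after subtraction.

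Other genes of heme and iron metabolism did not share 1 direction. Of 82 entries in 6 lists, 77 matched a named gene and 61 were detected. By the 1.5-fold rule 12 of the 61 were higher and 13 were lower, or 19.7% and 21.3%, beside 17.0% and 23.6% of all detected genes. Their median difference was 0.01. The counts were thus near the background. The same 17.0% and 23.6% are the background for the counts of each list below.

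Heme synthesis genes were mostly within 1.5-fold, with 1 of 6 detected higher and 1 lower. Their median of -0.19 has no settled direction, since it was 0.11 with no floor, and 0.06 with a floor of 9.51 (the 75th percentile over named probe sets) or with chromosomes 1 and 8 left out. Cpox, the coproporphyrinogen oxidase gene, was higher by 0.76 and Alas1, the first and rate-limiting enzyme of the pathway outside red cells, by 0.46. Ppox, the next oxidase after Cpox, differed by -2.36, from 10.74 to 8.38, and Urod by -0.48. The 20 neighbours of Ppox on chromosome 1 had a median of -0.85, and Ppox stood at -1.51 after its subtraction. Successive enzymes of the pathway therefore lay on opposite sides of 0.

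Heme transport and binding genes had a median of 0.25, and 1 of 10 detected was higher and 3 were lower. Abcg2, a porphyrin exporter among its other roles, was higher by 0.51 and Flvcr1, a heme exporter, differed by -0.86. Flvcr1 lies on chromosome 1, where its neighbours had a median of -0.76, and it stood at -0.10 after subtraction. Hebp2 was higher by 0.95, while Slc46a1 differed by -1.02 and Lrp1, also counted as lower, by -0.72. Each of these passed the floor on 1 array only and had a value under the neg median. The size of their differences therefore depends on background. Slc48a1, a lysosomal heme transporter, was named after its value was seen, and had values of 15.12 and 15.53.

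Iron uptake and reduction genes spread to both sides of 0. Of 8 detected genes 3 were higher, 4 lower and 1 within 1.5-fold, beside 17.0% higher and 23.6% lower of all detected genes. The list's median of -0.34 has no settled direction, since it was 0.33 with the floor of 9.51 and -0.03 with no floor. Steap1, of the metalloreductase family, had values of 9.98 and 12.32, a difference of 2.34. Steap3, the ferrireductase of the transferrin cycle, had values of 12.15 and 10.93, a difference of -1.22. Slc39a14, a transporter of iron not bound to transferrin, was lower by more, from 11.38 to 9.28, or 4.31-fold. Mcoln1, a lysosomal channel gene that passes iron, was higher by 1.96 and lies on chromosome 8, where it stood at 1.49 after its neighbours' median was subtracted.

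Iron sensing and chaperone genes had a median of -0.23, with 1 of 9 detected higher and 1 lower. Fbxl5, the ubiquitin ligase subunit that degrades iron regulatory proteins when iron is plentiful, was the higher one, from 10.26 to 11.72, or 2.74-fold. Aco1, which encodes the sensor IRP1, was the lower one, at -0.75. Ncoa4, the receptor that carries ferritin to autophagosomes, was higher by 0.51, and the iron chaperone gene Pcbp1 differed by -0.46. Both lay within 1.5-fold.

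Iron-sulfur cluster assembly genes were balanced, with 4 of 19 detected higher, 4 lower and a median of 0.01. Nfs1, the cysteine desulfurase that supplies sulfur, had values of 11.07 and 8.48, a difference of -2.59. Iscu, the scaffold on which the cluster is built, had values of 10.56 and 11.79, a difference of 1.23. Partners in the same step thus lay on opposite sides of 0. Glrx5, a glutaredoxin that passes clusters on, differed by -1.57. Ciao2b, of cytosolic cluster targeting, was higher by 1.86 and lies on chromosome 8, where it stood at 0.97 after its neighbours' median was subtracted.

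The list of regulators held Nfe2l3 itself, so its counts include the overexpressed gene. Of its 9 detected genes 2 were at least 1.5-fold higher, Nfe2l3 and the dim Maff at 1.02, and 0 were that much lower. Maff had values of 5.10 and 6.12, both under the neg medians, and passed the floor only through its NRF3 value. Its call therefore carries no weight. The median was 0.36. Bach1, the heme-sensing repressor of Hmox1, was named for that role after its value was seen. Its values were 7.80 and 8.17, a difference of 0.36 within 1.5-fold. The NRF2 gene Nfe2l2 lay at -0.46, with its value on the NRF3 array under the neg upper quartile. Bach2 lay at -0.27, under the neg upper quartile on both arrays and under the neg median on the NRF3 array. RNA of these factors does not measure their protein or activity.

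**Figure D4:**
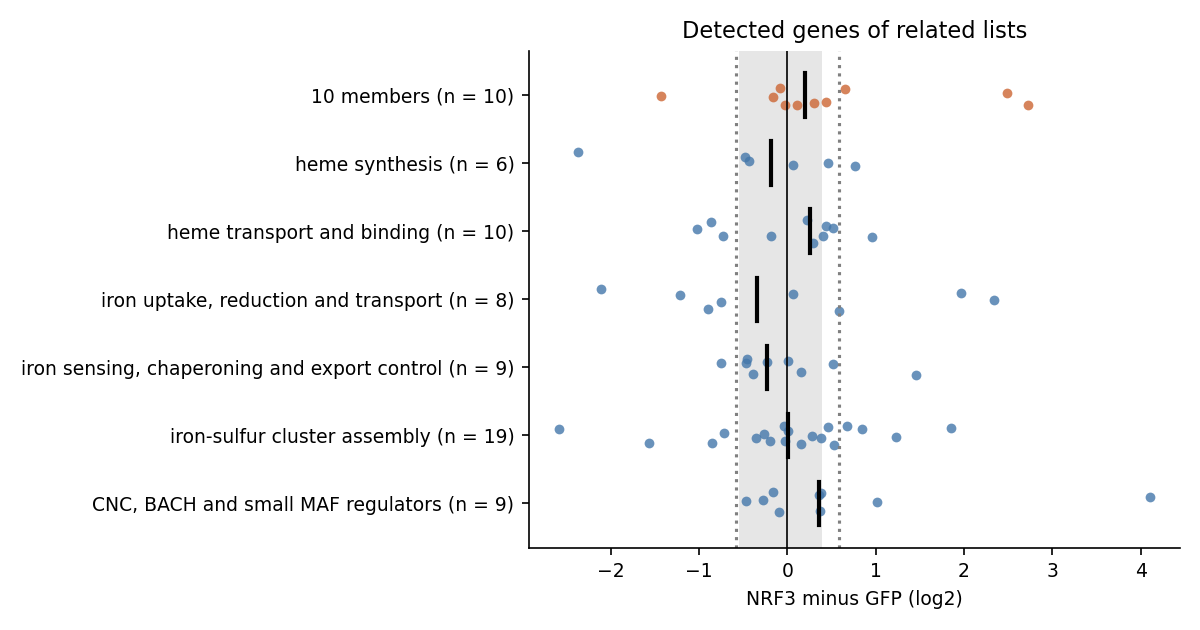
NRF3 minus GFP (log2) of the 10 genes (orange) and of the detected genes of 6 related lists (blue), 1 point per gene, spread vertically only for legibility. Black bars are medians, dotted lines 1.5-fold, and the grey band the quartiles of all detected genes. The lists scatter on both sides of 0 with medians between -0.34 and 0.36, and the point at 4.11 is Nfe2l3.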

How the data were processed

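The deposited table holds log2 expression values per probe set for 2 arrays, made by the authors with Affymetrix Expression Console and RMA, per the submitters' processing notes. No source used here gives its settings or the genome build. Of 28846 rows, 288 (GFP) and 279 (NRF3) lay above 16, the limit of a 16-bit reading, so folds are on the deposited scale. Arrays give no read depth, and their number limits precision.

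Probe sets were named from the platform annotation (19572 with 1 gene symbol) and joined by gene number to RefSeq (GRCm38.p6) for gene order. The chromosome and start position in RefSeq set the neighbours of each gene and the sides of its chromosome. The probe set with the highest mean stood for a gene. Differences, the 1.5-fold rule and neighbour medians were computed in Python 3.11.15 with pandas 2.3.3, and tested on simulated data. Alternatives were median centring, quantile normalization, a lowess trend (span 0.3, statsmodels 0.14.6), other floors, probe set means, a 2-fold rule, neighbour subtraction, and omission of chromosomes 1 and 8. No set test or random list was used.

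Members and lists were chosen with earlier results of these data known. Genes named are the 10 members, Nfe2l3, the 2 highest and 2 lowest detected genes of each list, and the nearest 3 detected genes on each side of members past 1.5-fold. Others are marked in the text or stand as the example of a count. Protein sequences were not used here.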

Additional observations from a re-analysis of the deposited data

How the results depend on the processing

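With 1 array per group no replicate could be left out, and no paired analysis was possible because each group has a single sample. Across 8 alternatives for Hmox1 its difference ran from 2.65 to 2.83, that of Blvrb across 9 from 2.13 to 2.56, that of Slc11a2 across 9 from 0.65 to 0.95, and that of Slc40a1 across 7 from -1.43 to -1.19. Probe set means could not change a member's difference, since each member had 1 probe set. Other floors and omission of chromosomes 1 and 8 could only drop a member. Unchanged values under these settings therefore show nothing about stability. Of 87 member values under the alternatives, these included, 85 stayed on their side of 1.5-fold and within 1.5-fold of the deposited difference. The other 2 were those of Fth1 and Hmox2 with 10 neighbours on each side subtracted. The number of members at least 1.5-fold higher was then 5 in place of 3, and the members' median 0.55 in place of 0.20. With 25 neighbours on each side, added after the data were seen, that median was 0.38. The number lower was 0 in place of 1 with the floor at the 75th percentile, 9.51, which Slc40a1 does not reach, and 0 with chromosomes 1 and 8 left out, since Slc40a1 lies on chromosome 1. For the 6 related lists the median of 0.01 became 0.13 after quantile normalization, 0.12 with 10 and 0.14 with 25 neighbours on each side subtracted. At 2-fold, a stricter rule by construction, 7 of their 61 detected genes were higher and 6 lower. Of all detected genes 6.75% were higher and 11.0% lower by that rule. Of 54 medians of single lists under the alternatives, 21 moved by over 0.1. The median turned its sign under at least 1 alternative for iron uptake (-0.34 to 0.33), heme synthesis (-0.19 to 0.11) and iron-sulfur cluster assembly (-0.03 to 0.24).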
